A study of Mus musculus with 15 samples.

Results

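Extracellular matrix and basement membrane genes were followed in mouse kidney across 2 diets and 2 operations. The set was a named list of 45 genes: 12 interstitial collagens, 12 basement membrane genes, and 21 others, namely matrix glycoproteins, proteoglycans and elastic fibre genes, the lysyl oxidases that crosslink collagen, matrix proteases and their inhibitors, and 2 stromal cell markers, Acta2 and Pdgfrb. Of the 45, 44 had a probe that could be named and 43 were measured, among 16032 genes tested in the whole series. Col12a1 had no named probe, and neither of the 2 Tnc probes was well above background on 3 arrays. Of the 43 measured genes, 40 were well above background on all 15 arrays, Postn on 14, Eln on 13 and Lox on 7.

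Kidneys of male C57/BJ mice were frozen, and their total RNA was hybridised to 1-colour Agilent arrays, 1 mouse per array. At 6 weeks of age the mice either lost the left kidney (uninephrectomy, UNX), with the adrenal gland spared, or had the kidney handled and left in place (sham), and they were then fed for 20 weeks before the tissue was taken. The 4 groups were high-fat diet with UNX (HFD-UNX, 4 arrays), high-fat diet with sham surgery (HFD-sham, 3), low-fat chow with UNX (LFD-UNX, 4) and low-fat chow with sham surgery (LFD-sham, 4), while the labels state 6 mice per group. The kidney that was measured in UNX mice was therefore the one that remained, in the absence of its partner.

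Interstitial collagens, led by types I and III, form the fibrils between tubules and vessels and are made mostly by fibroblasts and pericytes, and their accumulation is the hallmark of kidney fibrosis. Basement membranes are thin sheets of type IV collagen, laminin, nidogen and associated collagens under epithelia and endothelia. In the glomerulus the filter rests on a specialised network of the α3, α4 and α5 chains of type IV collagen, while α1 and α2 chains serve most other basement membranes. Proteases of the MMP family turn matrix over, and TIMP proteins inhibit them.

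Levels are given as normalised log2 signal, that is log2 of the processed signal minus the 75th percentile of the array, and differences are on the same log2 scale, on which 1 means 2-fold. Levels of different probes were not compared with each other. All 7 high-fat arrays lay on slides 1 and 2 and were scanned on day 1. All 8 low-fat arrays were scanned on day 2, sham on slide 3 and UNX on slide 4. A diet difference cannot be told apart from the scan day, nor a surgery difference on low-fat chow from the slide. Slides 1 and 2 each held arrays of both high-fat groups, and 5 of the 43 matrix genes differed between them (11.6%, against 7.05% of all genes): Col6a2, Mmp2, Lamb2 and Loxl1 were lower and Col8a1 higher on slide 2. All 9 proximal tubule markers were measured, with a summed level of 750 to 1518 times the arrays' 75th percentile signal. The 6 urothelial markers summed to 0.37 to 3.88. These sums rest on different probes and are not set against each other.

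Col27a1, the gene of a fibrillar collagen best known from cartilage, stood highest in mice with both treatments and lowest in mice with neither. Its level was 2.08, 2.27, 1.72 and 1.26 on the HFD-UNX arrays and 1.15, 0.79 and 0.57 on the HFD-sham arrays. On the low-fat diet it was 0.77, 0.76, 0.36 and 0.17 in LFD-UNX mice and -0.48, -0.06, -0.13 and -0.44 in LFD-sham mice. Both high-fat groups lay above the low-fat group with the same surgery, and both UNX groups lay above the sham group on the same diet, each time with no overlap. Only the HFD-sham and LFD-UNX groups, which differ in both treatments, overlapped.

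The diet difference in Col27a1 was 1.12 ± 0.24 (SE) in sham mice and 1.32 ± 0.22 in 1-kidney mice, with adjusted p = 0.0095 and 0.00248 by limma. Surgery gave 0.99 ± 0.24 on the high-fat diet, 1.02 within slide 1 and 0.81 within slide 2, and 0.80 ± 0.22 on the low-fat diet. Neither surgery value passed over all genes (adjusted p = 0.825 and 0.846), although Col27a1 had the lowest p of the 43 genes in both and ranked 17 and 53 of 16032. HFD-UNX kidneys had 4.32-fold the Col27a1 signal of LFD-sham kidneys (2.11 ± 0.22 on the log2 scale, adjusted p = 1.09e-04), which ranked 22 of all genes tested. That difference passed under each of the 20 alternative settings tried, and lay between 1.96 and 2.30 in them. With the slides fitted as a random block neither diet difference of Col27a1 passed (adjusted p = 0.138 in sham and 0.104 in 1-kidney mice), and with the normexp background correction the one in sham mice did not (0.0649).

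**Figure D1:**
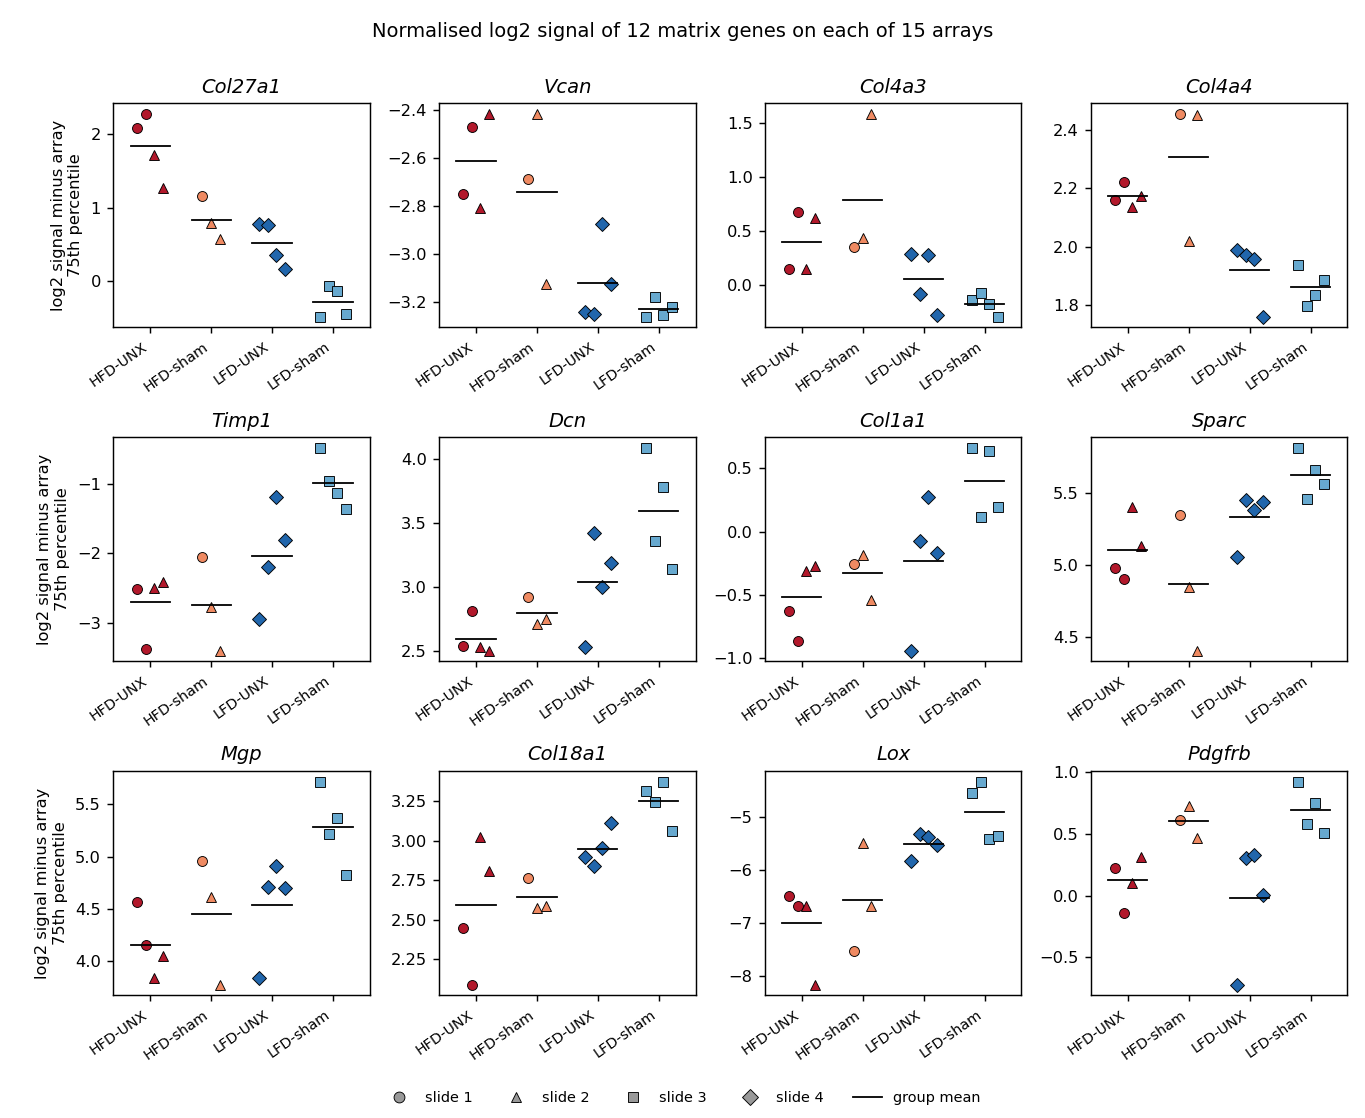
Normalised log2 signal of 12 matrix genes (vertical axis, log2 signal minus the array's 75th percentile) on each of the 15 arrays, grouped along the horizontal axis as HFD-UNX, HFD-sham, LFD-UNX and LFD-sham; point shapes mark the slide and bars the group mean. Col27a1 steps down from HFD-UNX (mean 1.83) to LFD-sham (-0.28). Timp1, Dcn, Col1a1, Sparc, Mgp, Col18a1, Lox and Pdgfrb have their highest group mean in LFD-sham.

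In sham mice, which kept both kidneys, the high-fat diet went with higher signal of some matrix genes and lower signal of others. Of the 43 genes 8 passed at an adjusted p under 0.05 (limma, Benjamini-Hochberg over all genes), 3 higher and 5 lower, while 13.8% of all genes passed in this comparison, 6.83% higher and 6.94% lower. The count among the matrix genes was thus not far from the share of all genes. Higher with Col27a1 were Col4a3 and Col4a4. Lower were Timp1, Sparc, Lox, Dcn and Col18a1. Here and below, in whole tissue, fewer cells of a type and less RNA per cell cannot be told apart.

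Timp1, a secreted inhibitor of matrix metalloproteinases, was at -2.05, -2.77 and -3.41 on the HFD-sham arrays and at -0.47, -0.95, -1.13 and -1.36 on the LFD-sham arrays. The groups did not overlap, and Timp1 was lower by 3.40-fold in HFD-sham mice (log2 -1.77 ± 0.40, adjusted p = 0.0122). Timp1 and Col27a1 were the 2 of the 8 genes that passed whichever of the 7 arrays was left out. Dcn encodes decorin, a small proteoglycan that binds collagen fibrils. It was at 2.92, 2.71 and 2.75 in HFD-sham mice against 4.09, 3.36, 3.78 and 3.14 in LFD-sham mice, a difference of -0.80 ± 0.23 (adjusted p = 0.0339). The HFD-sham arrays were close together and the LFD-sham arrays spread over almost 1 unit, all above them. Without HFD-sham replicate 2 or 3, or LFD-sham replicate 1 or 3, Dcn did not pass (adjusted p = 0.0658 to 0.0961).

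Sparc, a matricellular glycoprotein that binds collagen, was at 5.35, 4.84 and 4.40 in HFD-sham mice and at 5.82, 5.46, 5.66 and 5.56 in LFD-sham mice (-0.76 ± 0.20, adjusted p = 0.0240). The groups lay apart, HFD-sham replicate 1 only just below the lowest LFD-sham array. A second, dimmer Sparc probe was at 0.21, the mean of both was -0.28 (adjusted p = 0.455), and the call was lost without HFD-sham replicate 2 or 3 or LFD-sham replicate 1 or 3 (adjusted p = 0.0582 to 0.0742). Lox, the lysyl oxidase that starts collagen and elastin crosslinking, was at -7.52, -5.48 and -6.68 in HFD-sham mice against -4.54, -4.33, -5.40 and -5.36 in LFD-sham mice (-1.65 ± 0.46, adjusted p = 0.0324). It was dim throughout, well above background on 2 of 3 HFD-sham and 3 of 4 LFD-sham arrays. The Lox call was lost without HFD-sham replicate 1 or 3 or LFD-sham replicate 1 or 2 (adjusted p = 0.0667 to 0.117), and with the normexp background correction the difference was -0.59 (adjusted p = 0.813). Its relatives Loxl1 and Loxl2 differed by -0.21 and -0.17 and did not pass. Their further, dimmer probes gave -0.49 for Loxl1 and -0.62 and -0.46 for Loxl2.

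Among the basement membrane genes, Col18a1, whose product releases the fragment endostatin, was at 2.77, 2.57 and 2.59 in HFD-sham mice and at 3.32, 3.24, 3.37 and 3.06 in LFD-sham mice. All HFD-sham arrays were below all LFD-sham arrays (-0.61 ± 0.18, adjusted p = 0.0425), and a second Col18a1 probe gave -0.43. The Col18a1 call was lost whichever of the 7 arrays was left out (adjusted p = 0.0521 to 0.114). Col4a3, the α3 chain of type IV collagen and the target of autoantibodies in Goodpasture disease, was at 0.35, 0.43 and 1.59 in HFD-sham mice against -0.15, -0.08, -0.18 and -0.30 in LFD-sham mice (0.96 ± 0.26, adjusted p = 0.0281). HFD-sham replicate 3 was far above the other 2 HFD-sham arrays, and without it the difference was 0.56 (adjusted p = 0.0705). Leaving out any 1 of the 4 LFD-sham arrays also ended the Col4a3 call, at an adjusted p of 0.0516 to 0.0625.

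Col4a4, the α4 chain that assembles with α3 and α5, was at 2.46, 2.02 and 2.45 in HFD-sham mice and at 1.94, 1.79, 1.83 and 1.88 in LFD-sham mice (0.45 ± 0.12, adjusted p = 0.0289). The groups did not overlap, with HFD-sham replicate 2 the nearest. The further Col4a4 probes gave 0.24 and -0.25, the mean of the probes 0.15 (adjusted p = 0.676), and the call was lost without HFD-sham replicate 1 or 3 or LFD-sham replicate 2, 3 or 4 (adjusted p = 0.0544 to 0.0789). Col4a5, the X-linked α5 chain, differed by 0.12 and the widely used chains Col4a1 and Col4a2 by 0.05 and 0.22, none of which passed. Laminin and nidogen genes lay between -0.12 (Nid1) and 0.12 (Lama5), and Col15a1, a collagen at the outer face of basement membranes, was at 0.13 with the widest spread of the class. Further, dimmer Col15a1 probes gave 1.42 and 0.66.

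Of the 11 measured interstitial collagens Col27a1 alone passed in sham mice. The differences of the class ran from -0.73 (Col1a1, adjusted p = 0.0684) to 1.12 (Col27a1), with 8 of 11 below 0. The type VI chains Col6a1, Col6a2 and Col6a3, which form beaded microfibrils, were at -0.21, 0.05 and -0.17. Among the 10 glycoproteins, proteoglycans and elastic fibre genes 8 lay below 0, from Mgp (-0.84) to Bgn (-0.16), and Vcan (0.49) and Eln (1.13) above. Mmp2 and Mmp14, a gelatinase and the membrane protease that activates it, were at 1.11 and 0.21, Timp2 and Timp3 at -0.56 and -0.07, and Pdgfrb and Acta2, the smooth muscle actin of contractile stromal cells, at -0.09 and 0.02. Apart from Dcn and Sparc none of these genes passed. The number of genes called in this comparison was unstable. It fell to 3 without LFD-sham replicate 1 or 3, to 4 without LFD-sham replicate 2, and to 5 without LFD-sham replicate 4 or HFD-sham replicate 2 or 3, and it was 0 with normexp correction or with the slides as a random block.

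Markers of other cells moved with the same contrast. All 10 adipocyte markers lay lower in HFD-sham than in LFD-sham mice (median -2.08, 3 passing), with a summed level of 10.6 to 21.6 in HFD-sham and 25.9 to 43.3 in LFD-sham mice. Smooth muscle markers summed to 21.7 to 38.3 in HFD-sham against 40.2 to 48.9 in LFD-sham mice. Of the 6, 3 lay higher and 3 lower (median -0.12), and 2 passed lower, Tagln and Smtn. Fibroblast and pericyte markers summed to 8.44 to 11.1 in HFD-sham against 7.01 to 9.02 in LFD-sham mice, 8 of 11 higher with none passing. The part of these cells in the matrix differences was not tested.

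In 1-kidney mice the high-fat diet went with higher Col27a1 and Vcan and lower Lox. These 3 of 43 genes passed, 2 higher and 1 lower, against 14% of all genes, 7.9% higher and 6.1% lower. Vcan, the large proteoglycan versican, was at -2.75, -2.47, -2.81 and -2.41 in HFD-UNX mice against -3.24, -3.25, -2.87 and -3.13 in LFD-UNX mice. The groups lay apart, with HFD-UNX replicate 3 and LFD-UNX replicate 3 the nearest (0.51 ± 0.15, adjusted p = 0.0388). Vcan did not pass without HFD-UNX replicate 1, 2 or 4 or LFD-UNX replicate 1, 2 or 4 (adjusted p = 0.0533 to 0.105), and with normexp its difference was 0.25 (adjusted p = 0.918).

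Lox was not well above background on any HFD-UNX array, where its signal read -6.48, -6.68, -6.67 and -8.16, and was on 2 of 4 LFD-UNX arrays, which read -5.83, -5.32, -5.38 and -5.52. With HFD-UNX values under an array's lowest detected signal raised to it, Lox was 1.91-fold lower in HFD-UNX mice. This is not a strict bound, since the LFD-UNX mean held arrays without detection. The lowest detected signal was itself -6.57 to -6.24 on HFD-UNX and -6.02 to -5.40 on LFD-UNX arrays. Lox passed in the limma fit (adjusted p = 0.0347). That call was lost without HFD-UNX replicate 2 or 4 or any 1 of the 4 LFD-UNX arrays (adjusted p = 0.0569 to 0.0838), and with normexp the fitted difference was -0.26 (adjusted p = 0.999). Lox and Col27a1 passed in both diet comparisons, 6 genes in sham mice alone and 1 in 1-kidney mice alone, and 34 in neither. Whether the diet difference of any gene itself differed between sham and 1-kidney mice is the interaction, given below.

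The other genes called in sham mice did not pass in 1-kidney mice. Timp1 was at -2.52, -3.38, -2.50 and -2.41 in HFD-UNX mice against -2.95, -2.19, -1.18 and -1.80 in LFD-UNX mice (-0.67 ± 0.37, adjusted p = 0.243), with overlap. Dcn was at 2.54, 2.81, 2.53 and 2.50 in HFD-UNX mice against 2.53, 3.42, 3.00 and 3.18 in LFD-UNX mice (-0.44, adjusted p = 0.182). LFD-UNX replicate 1 was the array within the range of the HFD-UNX mice in both genes. Col4a4 was at 2.16, 2.22, 2.14 and 2.17 in HFD-UNX mice and 1.99, 1.97, 1.96 and 1.76 in LFD-UNX mice, apart but not passing (0.25, adjusted p = 0.151).

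In 1-kidney mice the count of genes called was 20 with array weights and 0 when the slides were a random block. Only 1 gene passed without HFD-UNX replicate 2 or 4 or LFD-UNX replicate 2 or 4, 2 without HFD-UNX replicate 1 or LFD-UNX replicate 3, and 5 without HFD-UNX replicate 3. Of 9 endothelial markers 3 (Cdh5, Tie1 and Ehd3) passed higher in HFD-UNX mice, with summed levels of 24.1 to 38.3 in HFD-UNX against 21.3 to 25.3 in LFD-UNX mice. Fibroblast and pericyte markers were higher in HFD-UNX mice in 9 of 11 and lower in 2 (median 0.40), with none passing. They summed to 6.80 to 10.8 in HFD-UNX against 5.70 to 7.34 in LFD-UNX mice. The part of these cells in the matrix differences of 1-kidney mice was not tested.

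**Figure D2:**
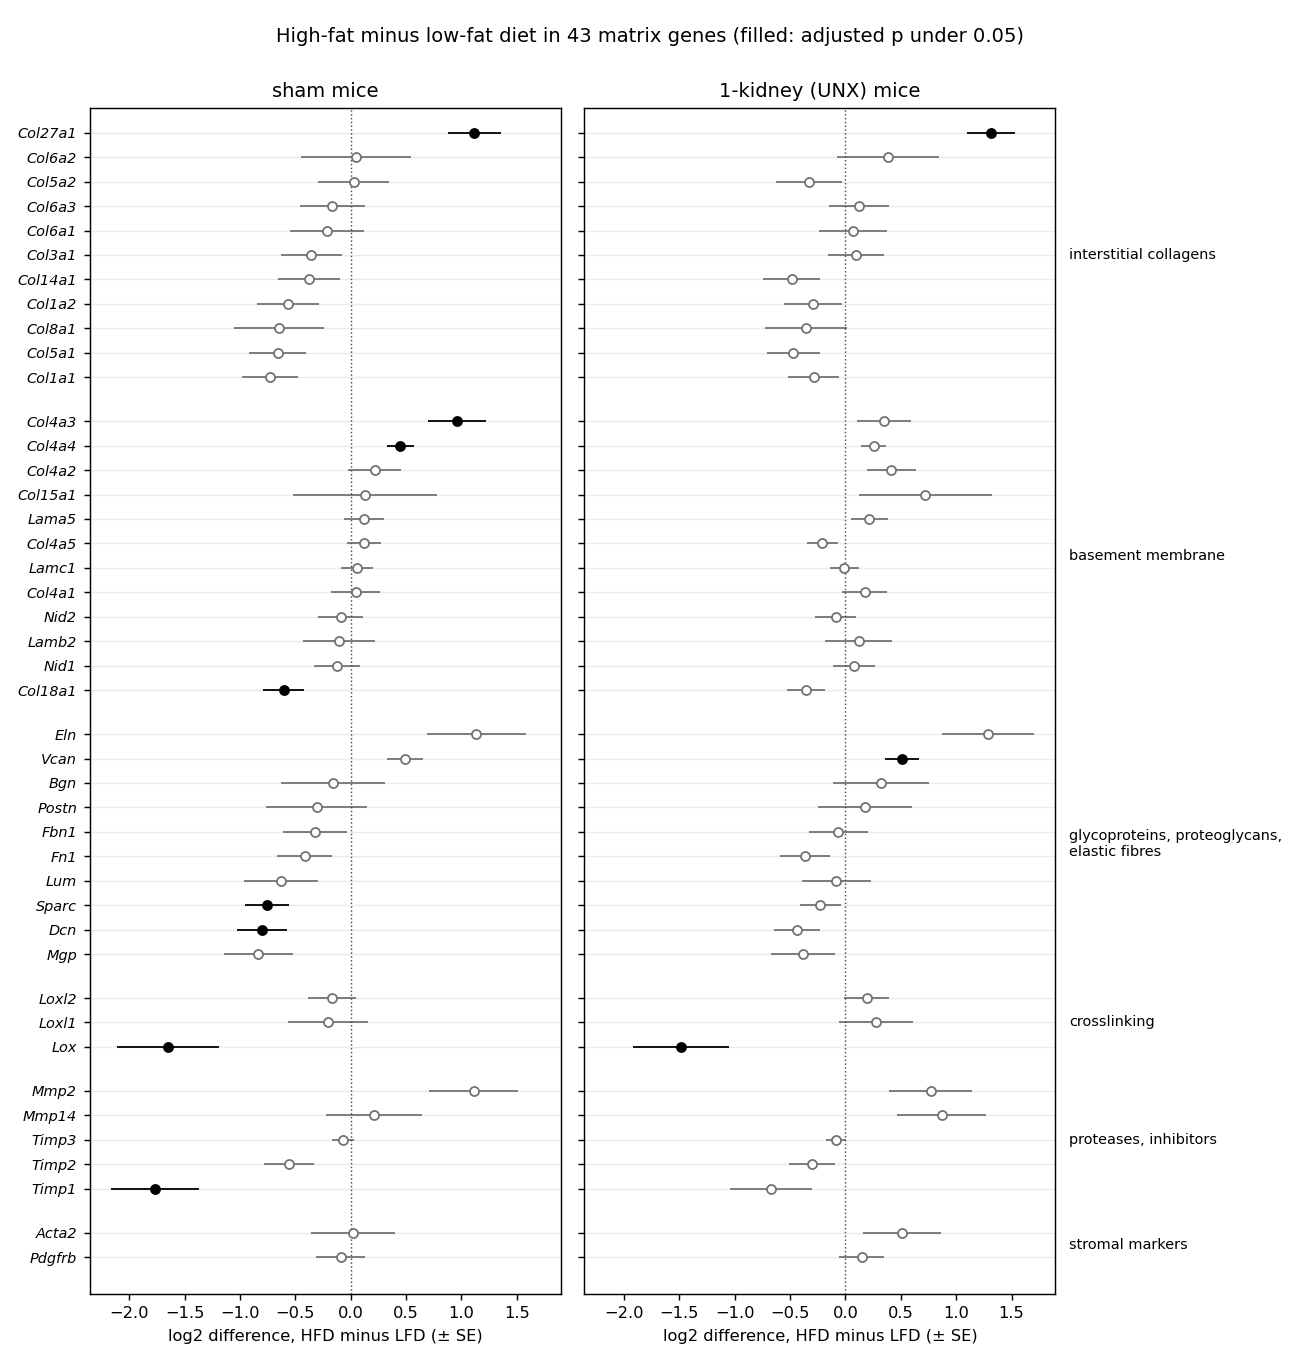
Log2 difference of high-fat minus low-fat diet (horizontal axis, ± SE) for the 43 measured genes, ordered by class down the page, in sham mice (left) and in 1-kidney mice (right); filled points passed at an adjusted p under 0.05. In sham mice 8 points are filled and in 1-kidney mice 3, with Col27a1 to the right and Lox to the left in both.

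The list was also split to compare interstitial collagens with basement membrane genes. In both diet comparisons the median difference of the interstitial class lay below that of the basement membrane class. In sham mice the median difference was -0.35 over 11 interstitial collagens and 0.09 over 12 basement membrane genes, a gap of -0.45. In 1-kidney mice the medians were -0.29 and 0.15, a gap of -0.44, while the median of all genes was -0.01 and 0.00. Averaging all probes of a gene in place of the brightest gave gaps of -0.30 and -0.076.

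By array, the median centred level of the interstitial collagens was -0.06, -0.20, -0.41 and -0.10 in HFD-UNX mice and 0.11, -0.02 and -0.19 in HFD-sham mice. It was -0.77, 0.09, 0.35 and 0.00 in LFD-UNX mice and 0.45, 0.04, 0.47 and 0.22 in LFD-sham mice. LFD-UNX replicate 1 fell far below every other array. The basement membrane class stayed within -0.19 to 0.14 on all 15 arrays. Its group means were 0.00 in HFD-UNX, 0.07 in HFD-sham, -0.09 in LFD-UNX and 0.01 in LFD-sham mice. The difference between the classes was -0.20 to -0.0019 on the HFD-sham arrays (mean -0.10) and 0.0054 to 0.40 on the LFD-sham arrays (mean 0.28), with no overlap. In 1-kidney mice it was -0.35 to -0.091 on the HFD-UNX arrays (mean -0.20) and -0.65 to 0.32 on the LFD-UNX arrays (mean 0.0041), with overlap.

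Within groups the interstitial collagens had a median SD between arrays of 0.40 (0.33 for Col27a1 to 0.72 for Col6a2) against 0.27 for the basement membrane genes (0.13 for Col4a4 to 0.95 for Col15a1). Timp3, an inhibitor that is bound to the matrix, had the smallest SD within groups of the 43 genes, 0.07, and lay between 6.15 and 6.57 on all arrays. Its group means ran from 6.21 in HFD-UNX to 6.46 in LFD-sham mice, a range of 0.25 and so wider than that SD.

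**Figure D3:**
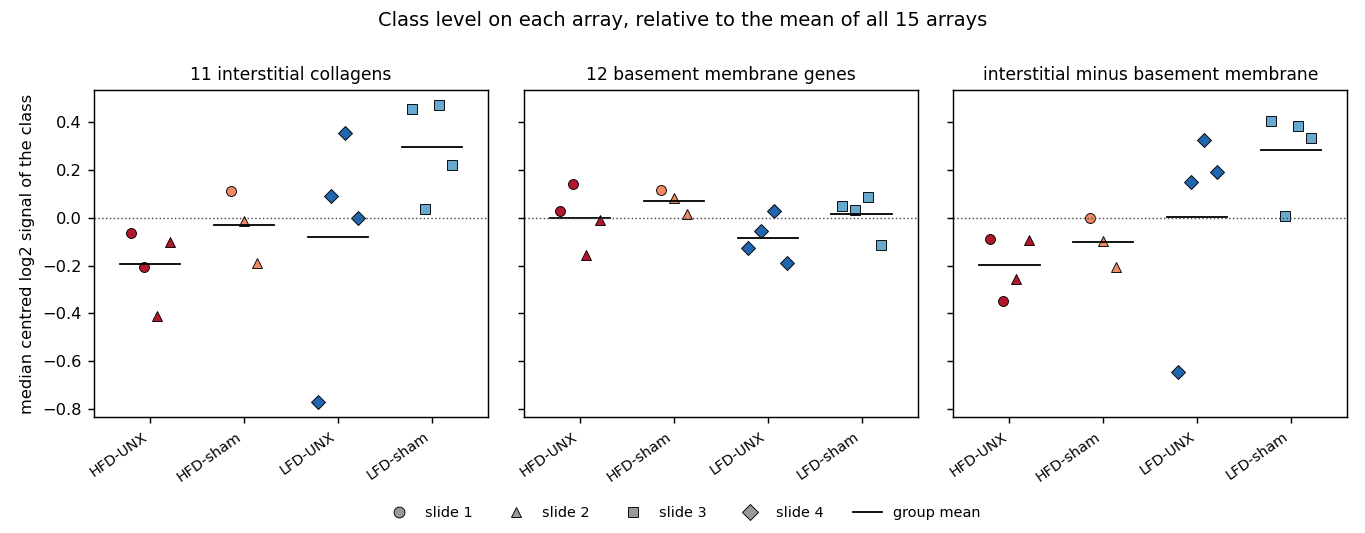
Median centred log2 signal of the 11 interstitial collagens (left), the 12 basement membrane genes (middle) and their difference (right) on each array, with groups along the horizontal axis, slides as shapes and bars for group means. LFD-UNX replicate 1 lies at -0.77 in the left panel, and the basement membrane genes stay within -0.19 to 0.14.

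In LFD-UNX kidneys most matrix genes lay somewhat lower than in LFD-sham kidneys, but no member passed. Of 43 genes 35 had a difference below 0, with a median of -0.30 against 0.01 for all genes. An unadjusted p under 0.05 was found for 7 members and for 517 of 16032 genes. In this comparison 0.00624% of all genes passed, that is 1 gene. The medians were -0.24 for interstitial collagens, -0.15 for basement membrane genes and -0.51 over the remaining 20. LFD-UNX replicate 1 held the lowest value of its group in 30 of the 43 genes. Without it the median over the members was -0.15 with 29 of 43 below 0.

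Pdgfrb, the PDGF receptor of pericytes and fibroblasts, was at -0.73, 0.30, 0.33 and 0.01 in LFD-UNX mice and at 0.93, 0.58, 0.75 and 0.51 in LFD-sham mice. All UNX arrays were below all sham arrays (-0.72 ± 0.20, adjusted p = 0.892). Timp1 (-1.05), Col1a1 (-0.63), Dcn (-0.56), Mgp (-0.75) and Col3a1 (-0.57) had unadjusted p-values under 0.05, with the groups overlapping in each, and Col27a1 was the 1 of the 7 that lay higher. All 11 fibroblast and pericyte markers (summed 5.70 to 7.34 in LFD-UNX against 7.01 to 9.02 in LFD-sham mice), all 9 endothelial markers (21.3 to 25.3 in LFD-UNX against 26.2 to 32.2 in LFD-sham) and all 8 podocyte markers (14.7 to 16.8 in LFD-UNX against 15.4 to 21.6 in LFD-sham) were lower in LFD-UNX kidneys as well, none passing. Their part in the matrix values was not tested.

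Between HFD-UNX and HFD-sham kidneys no member passed, as 0% of all genes did. Of the members 2 had an unadjusted p under 0.05, Col27a1 and Pdgfrb, as did 741 of 16032 genes. Pdgfrb was at 0.23, -0.14, 0.10 and 0.31 in HFD-UNX mice and at 0.61, 0.73 and 0.47 in HFD-sham mice (-0.48 ± 0.22, adjusted p = 0.999). The groups lay apart on this diet too, and the Pdgfrb difference was -0.57 within slide 1 and -0.39 within slide 2. Over the 43 genes 30 lay lower, with a median of -0.10 against 0.02 for all genes, -0.10 for interstitial collagens and -0.07 for basement membrane genes. Within slide 1, which holds 1 sham array, the median over the members was -0.25, and within slide 2 it was -0.17. Over both slides it was 0.01 without HFD-sham replicate 1, which lay on slide 1, and -0.22 without HFD-sham replicate 3. Fibroblast and pericyte markers were lower in HFD-UNX mice in 10 of 11 (median -0.20, summed 6.80 to 10.8 in HFD-UNX against 8.44 to 11.1 in HFD-sham mice), urothelial markers in 6 of 6, blood markers in 5 of 5 and podocyte markers in 6 of 8. Adipocyte markers were higher in 9 of 10 (median 1.34). None of these passed, and their part in the matrix values was not tested.

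**Figure D4:**
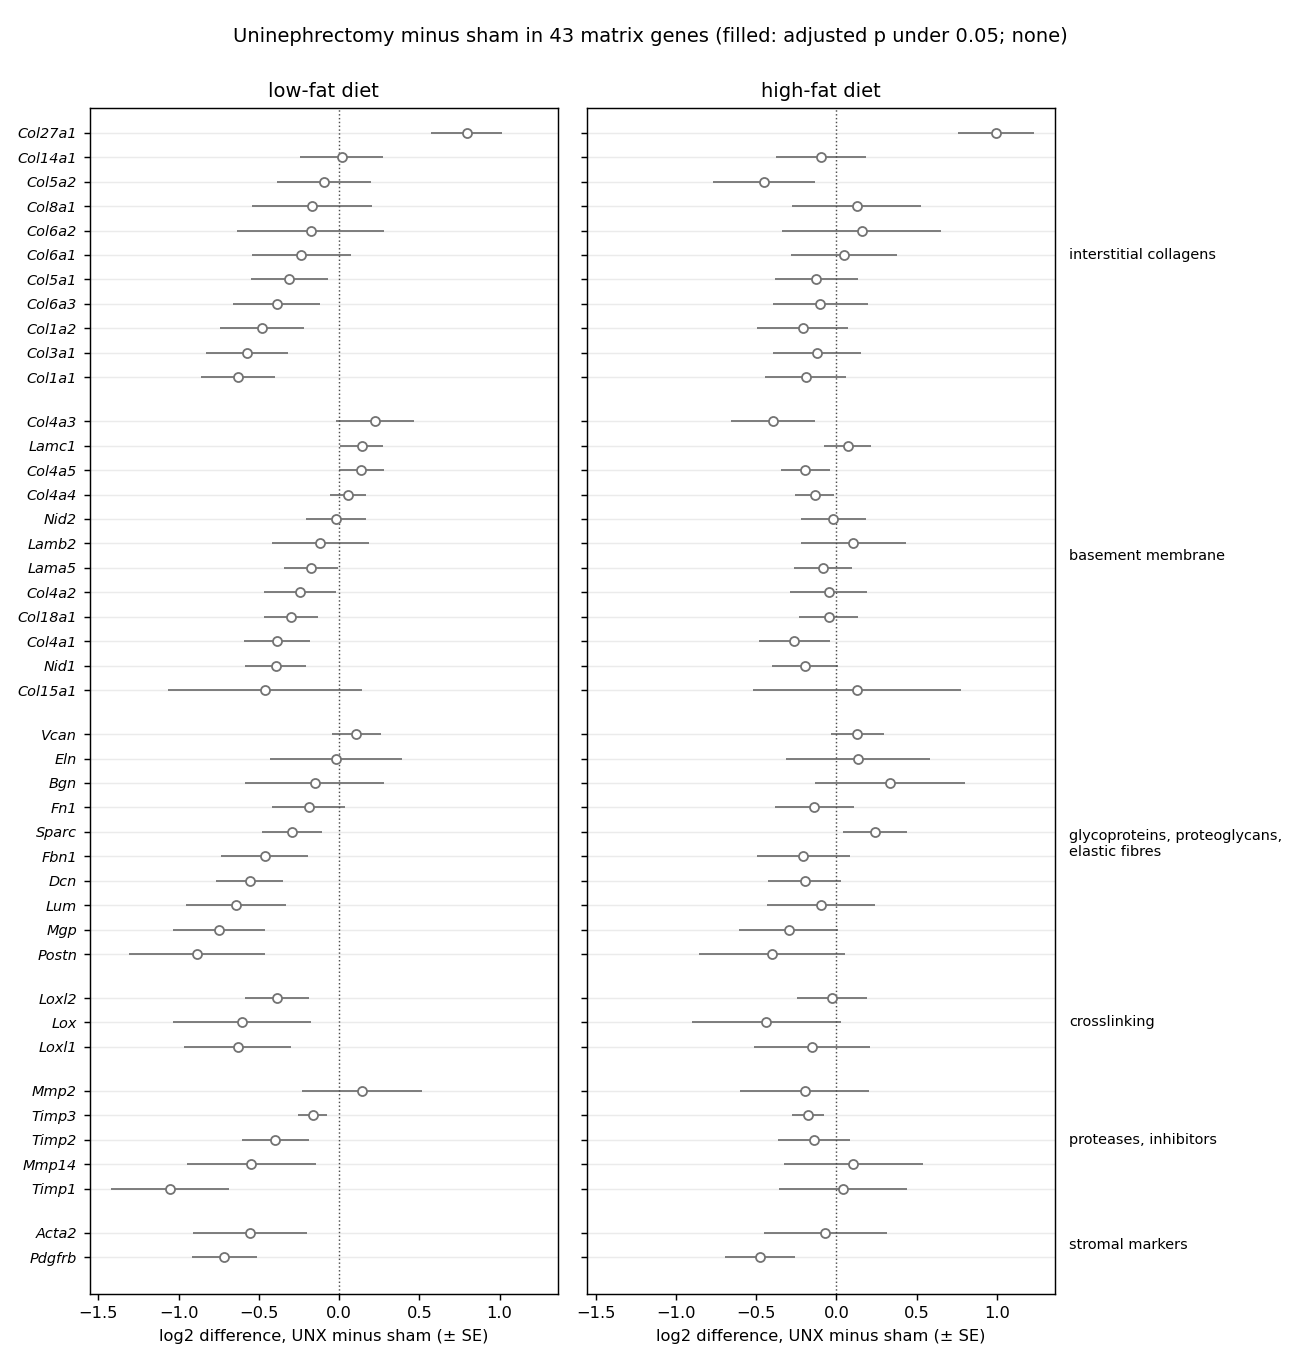
Log2 difference of uninephrectomy minus sham surgery (horizontal axis, ± SE) for the 43 measured genes, by class down the page, on the low-fat (left) and the high-fat diet (right). No point passed; 35 of 43 lie below 0 on the low-fat and 30 of 43 on the high-fat diet, and Col27a1 is farthest to the right in both.

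Whether surgery acted differently on the 2 diets was tested as the difference between the surgery differences, which on the low-fat side also carries the slides. No matrix gene passed, nor did any of all genes (0%). No member had an unadjusted p under 0.05, and 214 of 16032 genes did. The lowest p-values were those of Timp1 (1.10 ± 0.54) and Sparc (0.53 ± 0.27), both at adjusted p = 1.00. Of 43 genes 35 had a value above 0, with a median of 0.25 against 0.02 for all genes, and the median was 0.08 without HFD-sham replicate 3 and 0.10 without LFD-UNX replicate 1.

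Mice with both treatments were also set against mice with neither. Of the 43 genes 11 passed, 3 higher and 8 lower, against 19.6% of all genes, 10.8% higher and 8.79% lower. Higher in HFD-UNX than in LFD-sham kidneys were Col27a1, Vcan (0.62 ± 0.15, adjusted p = 0.0128) and Eln, the gene of elastin. Lower were Lox (adjusted p = 0.00506), Dcn (-0.997 ± 0.21, adjusted p = 0.00587), Timp1 (-1.73 ± 0.37, adjusted p = 0.00609), Col1a1, Mgp, Col18a1 (-0.66 ± 0.17, adjusted p = 0.0165), Timp2 (-0.70 ± 0.21, adjusted p = 0.0313) and Col5a1 (-0.78 ± 0.24, adjusted p = 0.0357). With HFD-UNX values raised to the lowest detected signal as above, Lox was 2.90-fold lower, again not a strict bound.

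Col1a1, the main chain of type I collagen, was at -0.63, -0.86, -0.31 and -0.27 in HFD-UNX mice and at 0.66, 0.11, 0.63 and 0.20 in LFD-sham mice. The groups were separate (-0.92 ± 0.23, adjusted p = 0.0147). Its partner chain Col1a2 differed by -0.77 and narrowly missed (adjusted p = 0.0520), and Col3a1 of type III collagen did not pass. Mgp encodes matrix Gla protein, an inhibitor of calcification in vessel walls. Its level was 4.56, 4.15, 3.84 and 4.05 in HFD-UNX mice against 5.72, 5.21, 5.37 and 4.83 in LFD-sham mice, again with no overlap (-1.13 ± 0.29, adjusted p = 0.0148).

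Eln was at -3.25, -3.00, -5.12 and -4.07 in HFD-UNX mice and at -4.85, -5.52, -4.95 and -5.20 in LFD-sham mice (1.27 ± 0.41, adjusted p = 0.0453). HFD-UNX replicates 1 and 2, on slide 1, were the high ones, and replicate 3, on slide 2, lay among the LFD-sham arrays. Without HFD-UNX replicate 2, or without LFD-sham replicate 3, 7 of the 43 genes passed in place of 11. Without LFD-sham replicate 3 Col18a1 did not pass (adjusted p = 0.0502), and without HFD-UNX replicate 2 Col1a1 did not (adjusted p = 0.0501). With the slides as a random block Col27a1 alone passed, and with normexp the fitted Lox difference was -0.32 (adjusted p = 0.926). These comparisons share arrays with those above and are not separate evidence.

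Several pairs of collagen genes followed each other over the arrays, but not all whose chains share a molecule. Pearson's r over 15 arrays was 0.80 for Col4a1 and Col4a2, 0.79 for Col4a3 and Col4a4, 0.83 for Col6a1 and Col6a2, 0.74 for Col1a1 and Col1a2 and 0.75 for Col1a1 and Col3a1. With group means removed these were 0.85, 0.47, 0.86, 0.50 and 0.70. Col5a1 and Col5a2, chains of type V collagen, gave 0.26, and 0.11 with group means removed. Across classes, Col1a1 and Col4a1 gave 0.25. These are descriptions, since the arrays share slides and a normalisation. LFD-UNX replicate 1 lay at the low end of the Col4a1, Col6a1 and Col1a1 pairs, and HFD-sham replicate 3 far out on the Col4a3 axis.

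**Figure D5:**
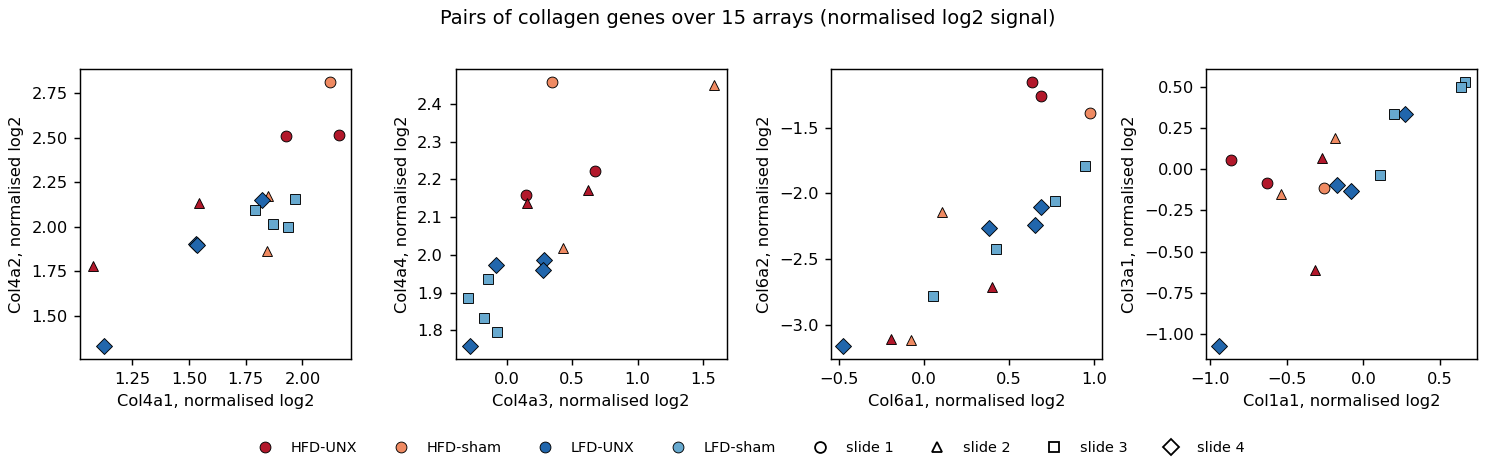
Normalised log2 signal of 4 pairs of collagen genes, 1 gene per axis and 1 point per array, with colours for groups and shapes for slides. Points rise together in each pair (r = 0.80, 0.79, 0.83 and 0.75 from left to right), and LFD-UNX replicate 1 is at or near the lower left corner for all pairs but Col4a3 with Col4a4.

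Several of these pairs are also neighbours in the genome. Col4a1 and Col4a2 lie head to head on chromosome 8, and in the RefSeq promoter table (build GRCm38.p6) their first transcribed bases face each other across a stretch of 22 bases that both transcripts hold, chr8:11312805-11312826, plus strand. It is shown because both genes start in it:
Col4a1 and Col4a2 shared start: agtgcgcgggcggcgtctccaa
Col4a3 and Col4a4 lie head to head on chromosome 1, with gene spans that overlap by 114 bases.

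The upstream windows (250 bases before the first transcribed base, same table and build) of Col27a1 and Timp1 are shown because these genes had the largest higher and lower differences of the members called in sham mice. Capitals mark the motifs that were searched and found, on either strand: GGGCGG (the GC box) or its complement CCGCCC, and CCAAT or its complement ATTGG. The Col27a1 window is chr4:63215162-63215411, plus strand, inside a gene span that the table starts further upstream. The Timp1 window is chrX:20869916-20870165, plus strand, within the span of Syn1.
Col27a1: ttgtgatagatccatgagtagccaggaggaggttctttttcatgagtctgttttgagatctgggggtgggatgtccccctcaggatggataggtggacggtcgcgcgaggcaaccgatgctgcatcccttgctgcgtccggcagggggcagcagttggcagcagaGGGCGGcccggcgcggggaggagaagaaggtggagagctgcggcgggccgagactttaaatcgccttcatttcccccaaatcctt
Timp1: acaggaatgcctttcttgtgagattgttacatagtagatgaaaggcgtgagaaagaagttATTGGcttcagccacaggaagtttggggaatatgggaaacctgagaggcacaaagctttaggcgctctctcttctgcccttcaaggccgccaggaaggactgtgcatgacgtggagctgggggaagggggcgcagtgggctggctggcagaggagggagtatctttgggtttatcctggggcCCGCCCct
In Col27a1 the GGGCGG match lies 85 to 80 bases upstream. In Timp1 the CCAAT match lies 190 to 186 and the GGGCGG match 8 to 3 bases upstream, both on the opposite strand. Of the 45 members 28 had a window in the table. GGGCGG was found in 18 of the 28 (64.3%) and in 32.7% of all 32851 windows, CCAAT in 10 (35.7%) and 33.8%, and TGANTCA, an AP-1 site, in 1 (Col6a1, 3.6%) and 6.7%. A member with more than 1 window (Postn, Tnc, Col6a2 and Col18a1) counted if any of them matched, whereas the other shares are over single windows. The units are thus unlike, and the small CCAAT difference has no direction to read. A match is a stretch of letters and not a shown binding site.

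The 5 genes of all tested with the closest pattern to the mean of the interstitial collagens over the 15 arrays were Rcn3 (r = 0.92), Cyp1b1 (0.91), Art4 (0.89), C1s2 (0.89) and Prtn3 (0.88). Within the class, Col6a3 was closest to the mean (0.94), and Col8a1 (0.03) and Col27a1 (-0.33) did not follow it. Of the other members, Fbn1 (fibrillin 1, a microfibril protein), Fn1 (fibronectin) and Loxl1 were closest, at 0.88, 0.82 and 0.82.

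Other matrix genes outside the list were read against the same shares of all genes, 13.8% called in sham and 14% in 1-kidney mice. In sham mice, 1 of 12 measured further collagens passed higher (Col9a1, 0.92) and 3 lower, among them Col5a3 (-0.75) and Col7a1 (-0.84). Of 18 further basement membrane genes 2 passed lower, among them Fras1 (-0.45), and 0 passed higher. Of 30 further glycoproteins and proteoglycans none passed in either direction. An unadjusted p under 0.05 was found for 7 of them and for 4823 of all 16032 genes. Of 20 further proteases and inhibitors 2 passed lower, among them Htra1 (-0.79), a secreted serine protease, and 0 passed higher. Among 18 collagen processing genes, Bmp1, which cleaves the end of procollagens, was higher (1.96, adjusted p = 0.00866) and Pcolce, which enhances that cleavage, lower (-0.61, adjusted p = 0.0177).

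In 1-kidney mice Bmp1 (2.26), P4ha3 (1.10) and P3h1 (0.78), the last 2 collagen prolyl hydroxylases, passed higher and Pcolce (-0.50) lower. Col7a1 (-0.94) was the 1 further collagen that passed. Frem2 (-0.49) and Fras1 (-0.41), partner proteins of embryonic basement membranes, and Ecm1 (-0.73) were lower, and Ltbp1 (0.54), which binds latent TGF-β to the matrix, was higher. Of 18 matrix receptors, Cd44, the hyaluronan receptor, was higher on the high-fat diet in sham (0.73) and in 1-kidney mice (0.86), and Itgb6, an epithelial integrin subunit, lower in both (-0.80 and -1.33). Itga8 (0.95) in sham and Sdc2 (0.55) in 1-kidney mice passed higher. No gene of these lists passed for surgery on either diet, where unadjusted p-values under 0.05 were found for between 0 and 3 genes per list. Of all 16032 genes, 517 on the low-fat and 741 on the high-fat diet had such a p-value.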

How the data were processed

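Kidney RNA of 15 mice, 100 ng each, was labelled with Cy3 and measured on Agilent 4x44K arrays in 4 groups of 3 or 4. The deposited intensity values are the processed signal of 1 scan per array, background-subtracted within each array and not normalised between arrays. Per the file headers the software was Feature Extraction 10.7.3.1, which the submitters' notes give as 10.7. A table of values also deposited by the authors repeats these intensities, at 0.995 to 1.005 times the scanner values. Its column medians run from 56.7 to 251, so no other scale or centring was found.

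The deposited intensities were put on the log2 scale and the 75th percentile of an array's non-control spots was taken off. Spots marked as outliers (74 to 273 per array) were left out, and no spot was saturated. Well above background were 60.5% to 65.6% of spots on the low-fat arrays and 65.7% to 73.4% on the high-fat arrays. A probe had to be well above background on 3 arrays or more. Probes were named through their RefSeq accession (27234 of 39429 probes; GRCm38.p6 table, for names only), and the brightest probe stood for a gene. The number of arrays limits the precision. A fold of a gene not detected in a group is set against the lowest detected signal of each array in that group. The other group's values were taken as read, detected or not.

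Groups were compared with limma 3.58.1 (R 4.3.3, statmod 1.5.0), 1 mean per group over all 15 arrays, two-sided, with Benjamini-Hochberg adjustment over 16032 genes and a threshold of 0.05. The code was tested on simulated data. Each array is a separate mouse per the labels. Genes named were members that passed (up to 8 lowest p-values with all array values; Timp2, Col5a1, Eln and others outside the rule were chosen with their values in view), the 2 lowest p-values where none passed, class extremes, and up to 2 per direction of the other lists. Members and lists were chosen with earlier results of these data known. The residuals of same-numbered arrays of the 2 high-fat groups correlated at 0.436, 0.122 and 0.332 (numbers 1 to 3). Numbers 1 and 3 shared a slide in these groups and number 2 did not. Over all group pairs the median of same-numbered arrays was -0.01, and arrays of different numbers reached 0.424. The main fit did not pair arrays, and replicate numbers entered only in alternatives. Alternatives changed normalisation, background, filter, probe choice, slide, pairing, arrays and weights. Some genes of the other lists are not reported here.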

Additional observations from a re-analysis of the deposited data

Results flagged for a closer look

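Among the 45 groups of 4 arrays tested, over the genes whose array values are given, 5 held an array far from the other 3. Chance flags about 1 in 20 such groups. Dcn was at 2.81 on HFD-UNX replicate 2, against 2.50 to 2.54 on the others. Timp1 was at -3.38 on the same array, against -2.52 to -2.41. Lox was at -8.16 on HFD-UNX replicate 4, against -6.68 to -6.48, and was not well above background on any of the 4. Col4a4 was at 1.76 on LFD-UNX replicate 4, against 1.96 to 1.99. Sparc was at 5.05 on LFD-UNX replicate 1, against 5.38 to 5.45, the array that also held the lowest value of its group in 30 of the 43 genes.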

How the results depend on the processing

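No called value changed sign among the genes followed through the alternatives, which were at most the 8 with the lowest p-values per comparison. The called Eln, Timp2 and Col5a1 were not followed. No alternative used a further probe alone, and in sham mice 1 such probe of Sparc (0.21) and 1 of Col4a4 (-0.25) had the opposite sign. Of the values of named genes under alternatives 401 kept their status, passing or not, and 98 lost a call. The 401 include the surgery and interaction values, which had no call to lose. Over every alternative run, 0 members passed for surgery on either diet or for the interaction. For diet in sham mice the 8 genes that passed became 3 in a fit of the compared groups only, 5 with the mean of a gene's probes, 0 with normexp correction, 0 with slide as a random block, and 3 to 6 with 1 array left out. Treating replicate numbers as a block (replicate block) left 3; it moved no other count of members by over 1.5 times. A replicate block within the high-fat groups, added after the data were seen, left 0 for surgery there. For diet in 1-kidney mice, 3 became 20 with array weights, 1 with normexp, 6 with a fixed term for slide 1 against slide 2, 0 with slide as a random block, and 1 to 5 with 1 array left out. For both treatments against neither, 11 became 24 with array weights, 3 with normexp, 1 with slide as a random block, and 7 to 12 with 1 array left out. The gap between interstitial and basement membrane medians was -0.30 with normexp and -0.64 to -0.32 with 1 array left out for both treatments against neither, -0.076 with the mean of probes and -0.48 to -0.23 for diet in 1-kidney mice, and 0.13 with normexp and -0.12 to 0.11 for surgery on the high-fat diet. With cyclic loess 3 members were higher and 3 lower in sham mice, against 3 and 5. Over all genes, 1095 higher and 1113 lower in sham mice became 63 and 136 with normexp and 13 and 1 with slide as a random block. In 1-kidney mice 1267 and 978 became 126 and 195, and 20 and 4, and for both treatments 1731 and 1409 became 199 and 312, and 75 and 8. With quantile normalisation the splits were 1155 and 1342 in 1-kidney mice and 1588 and 1884 for both treatments, and without the filter on dim probes 1282 and 3510 in sham mice, where the median of all genes was -0.11. The cause of these shifts was not tested. Members near background (Lox, Postn, Eln) are limited by their dim signal.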
